A study of Homo sapiens with 2 samples.

Results

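The distal long arm of human chromosome 19 carries several families of genes that arose by repeated tandem duplication and that encode cell surface receptors, adhesion molecules or secreted proteins rather than zinc finger proteins. The members described here are the gene intervals of chromosome 19 that start above 40000000 (hg19) and whose symbols begin with CEACAM, PSG, KLK, LILR, LAIR or KIR, KIRREL genes left out. The rule found 58 of the 40237 intervals for which reads were given: 12 CEACAM, 10 PSG, 15 KLK, 11 LILR, 2 LAIR and 8 KIR genes. H3K9me3 was mapped by chromatin immunoprecipitation and sequencing, with the Abcam antibody ab8898 per the series' design text, in KBM7, an established near-haploid cell line from a chronic myeloid leukemia, grown in IMDM with fetal calf serum and not otherwise treated per the labels. Besides the 1 H3K9me3 library, an IgG library was made from the same cells as a control, which was not analysed here. Every value below therefore comes from 1 library, without a replicate or a control beside it, and no p-value was computed. The reads summed over all gene intervals, some of which overlap, came to 78512210. The identity of the cells was not checked against markers, since the library measures a histone mark and not expression.

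H3K9me3 is the mark of constitutive heterochromatin, bound by HP1 proteins and laid down by enzymes such as SETDB1 and SUV39H1. On chromosome 19 it is known above all for the KRAB zinc finger clusters, which lie between the families described here. CEACAM genes encode immunoglobulin-like adhesion molecules of epithelia and granulocytes, and PSG genes, their close relatives, encode pregnancy-specific glycoproteins secreted by the placenta. KLK genes encode the kallikreins, secreted serine proteases of prostate, skin and other epithelia. LILR, LAIR and KIR genes form the leukocyte receptor complex: LILR proteins are receptors, several of them for HLA class I, on myeloid and lymphoid cells, LAIR proteins bind collagen, and KIR proteins are HLA class I receptors of natural killer cells.

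The families differed most in that the PSG genes had the lowest median score and no peak at all, whereas the kallikreins, KIR and LILR genes had intermediate scores with peaks. The gene score is the number of H3K9me3 reads in the gene interval per kb of interval, not scaled to library depth. The family medians were 34.4 reads per kb for PSG, 53.4 for LAIR, 72.3 for CEACAM, 76.5 for LILR, 80.8 for KIR and 91.0 for KLK. The median was 47.1 over all intervals, 26.7 over the 982 intervals of chromosome 19 of 4 kb or more that are neither members nor zinc finger genes, and 138 over the 247 zinc finger genes of the chromosome. All 10 PSG scores lay below the lowest KLK, LILR and KIR scores. The KLK, KIR, LILR and CEACAM ranges overlapped.

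**Figure D1:**
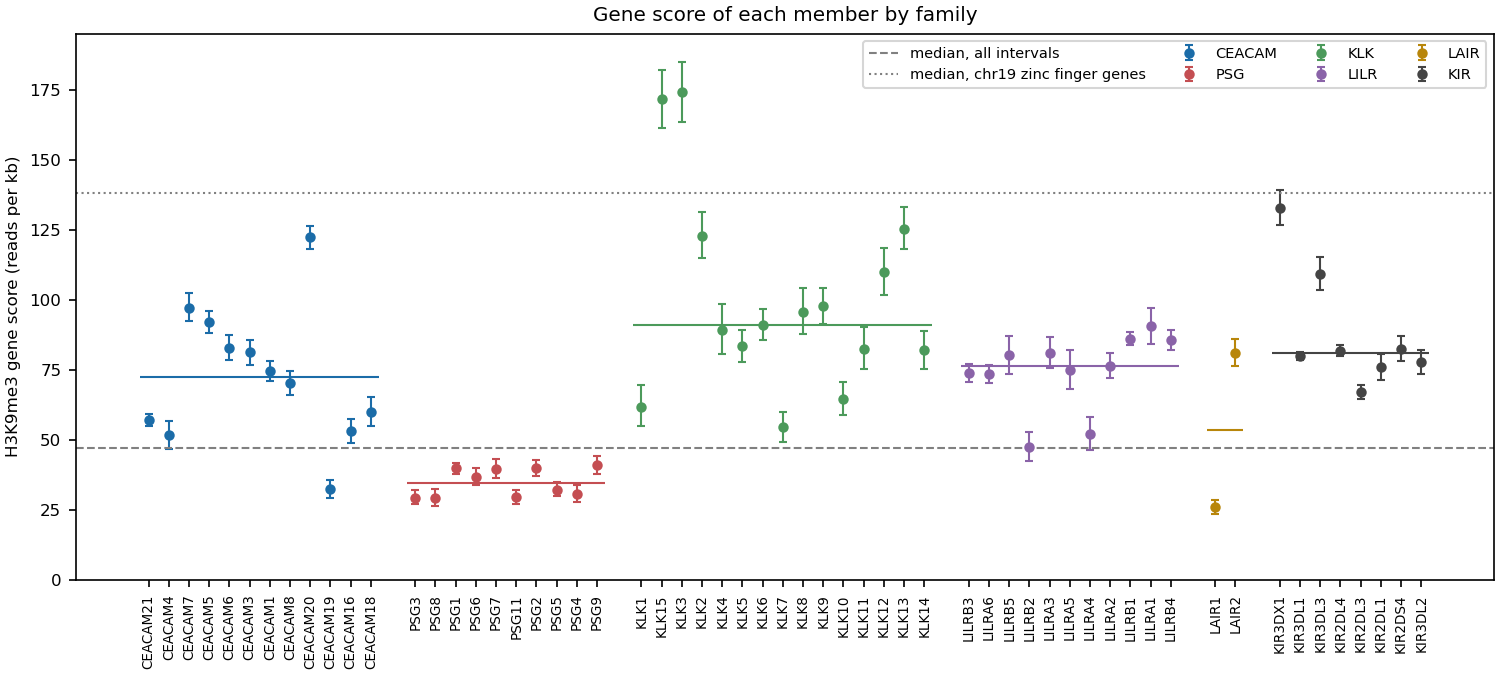
Gene score in reads per kb (vertical axis) of each of the 58 members, in chromosomal order within each family; points are single genes of 1 library, bars are exact 95% Poisson intervals (counting error only), and coloured lines are family medians. The 10 PSG genes sit between 29.3 and 40.8, below the dashed line at the median of all intervals (47.1), and KLK15 and KLK3 sit above the dotted line at the median of the zinc finger genes of chromosome 19 (138).

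Of the 58 members, 46 scored above the median of all intervals, as did 50% of all intervals, 37.2% of those of 4 kb or more and 28.5% of the other long intervals of chromosome 19. Members that overlap another member, 14 in all, can share its peaks and are not separate counts. At least 1 bp of a peak was present in 38 members (65.5%). The same held for 33.5% of all intervals, for 48% of those of 4 kb or more and for 32.7% of the other long intervals of chromosome 19; all members are longer than 4 kb, a limit set after the lengths were seen. By family, a peak was found in 9 of 12 CEACAM, 0 of 10 PSG, 10 of 15 KLK, 10 of 11 LILR, 1 of 2 LAIR and 8 of 8 KIR genes. Peaks covered 14.7% of the sequence within CEACAM intervals, 24.2% within KLK, 28.0% within LILR, 15.7% within LAIR and 32.8% within KIR intervals, where each base was counted once. The zinc finger genes of the chromosome had 57.6% of their sequence in peaks by the same measure. A total of 5 members had 50% or more of their interval in peaks (KIR3DL3, KLK3, KLK13, KLK15 and LILRA1), a share of 8.62%, against 5.55% of all intervals, 3.31% of those of 4 kb or more, 5.5% of the other long intervals of chromosome 19 and 70.4% of the zinc finger genes.

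Score and peak cover separated in some members. All 38 members with a peak scored above the median of all intervals, but so did 8 of the 20 members without one. The highest of these was KLK2, with 123 reads per kb and no peak. Among the 808 intervals of 4 kb or more anywhere in the genome that scored at least as high as KLK2, 45 (5.57%) had no peak. Score and cover come from the same reads and are not separate measurements.

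**Figure D2:**
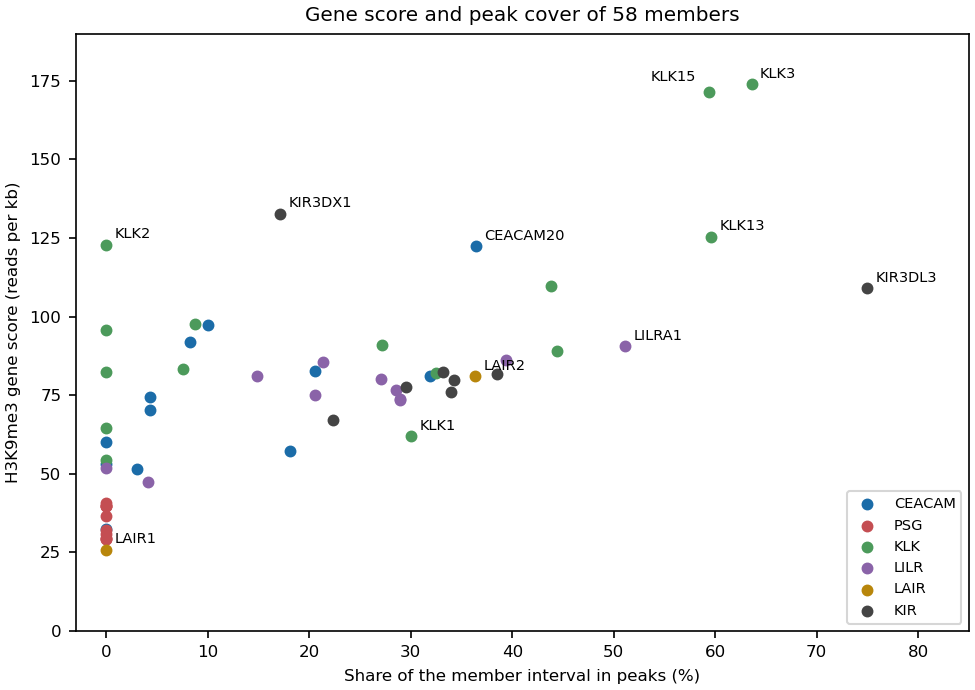
Gene score in reads per kb (vertical axis) against the share of the member interval in peaks in percent (horizontal axis) for the 58 members, coloured by family, each point being 1 gene of 1 library. KLK2 (123 reads per kb) stands high with no peak, and KIR3DL3 has the highest cover at 75.0%.

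No member had few reads. The lowest read count was 287, in KLK1, and the highest was 11371, in KIR3DL1. Fewer than 10 reads were found in 0 of the 58 members, against 9% of all intervals, 1.18% of those of 4 kb or more and 0.305% of the other long intervals of chromosome 19. A score below the 10th percentile of all intervals (14.7 reads per kb) was likewise found in 0 members, against 10.1% of intervals of 4 kb or more and 14.7% of the other long intervals of chromosome 19. At the upper end, 0 members scored above the 90th percentile (178 reads per kb), against 10% of all intervals, 0.864% of those of 4 kb or more and 1.12% of the other long intervals of chromosome 19. The sources used here do not say how reads that match several copies were handled, so a score in a near-identical copy may hold reads of its neighbours or lack its own.

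The pregnancy-specific glycoprotein genes formed an array of even scores. The scores of the 10 genes were 29.3 reads per kb in PSG8 and in PSG3, 29.5 in PSG11, 30.7 in PSG4, 32.1 in PSG5, 36.7 in PSG6, 39.7 in PSG7, 39.8 in PSG1 and in PSG2, and 40.8 in PSG9. All lay below the median of all intervals, yet 55.8% of the other long intervals of chromosome 19 scored below the lowest PSG gene and 32.6% above the highest. The ratio of highest to lowest was 1.39 (95% interval 1.23 to 1.58 for PSG9 over PSG8), the smallest of the 6 families. Of these, 5 lay between 29.3 and 32.1 (PSG8, PSG3, PSG11, PSG4 and PSG5) and 5 between 36.7 and 40.8 (PSG6, PSG7, PSG1, PSG2 and PSG9). The counting intervals of PSG5 (29.7 to 34.7) and PSG6 (33.7 to 39.8), the nearest genes on either side of that gap, overlapped. Along the chromosome the lower and higher genes alternated in short runs: PSG3 and PSG8 were low, PSG1, PSG6 and PSG7 higher, PSG11 low, PSG2 higher, PSG5 and PSG4 low and PSG9 higher. Read counts behind these scores ran from 381 to 1699.

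Peaks were nearly absent from the whole PSG array and not only from the genes. The array spans 43225794 to 43773682 of chromosome 19 (hg19), 548 kb, and held 5 peaks, or 0.913 per 100 kb, covering 0.465% of it. The other arrays held between 6.85 and 25.2 peaks per 100 kb. None of the 5 peaks touched a PSG gene, and none was wider than 750 bp, against a median width of 1200 bp for the 4965 peaks of chromosome 19. The 100 kb on either side of the array had 10.8% and 11.7% of their sequence in peaks. A pair of the 5 peaks, both 300 bp wide, lay at nearly the same distance upstream of a PSG start, 32.12 kb from PSG7 and 32.13 kb from PSG2. A stretch of 198 kb without a peak, which ran on past the end of the array, held PSG5, PSG4 and PSG9, and the longest stretch wholly within the array, of 165 kb, held PSG1, PSG6 and PSG7. They ranked 12 and 15 among the 1842 stretches between peaks beyond 40000000, whose median was 1.2 kb. Of the other chromosome 19 intervals of 4 kb or more whose scores fell in the PSG range, 33 of 114 (28.9%) had a peak.

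The start regions of PSG genes show how similar the copies are. RefSeq start windows (GRCh38.p14, matched by symbol) were given for 3 of the 10 PSG genes, and the 250 bases before the start are printed 5′ to 3′ because none of the 3 genes had a peak at its start and their copies are close enough to share short reads. Over the bases that align with PSG3, PSG4 was 95.1% identical (245 aligned positions) and PSG5 91.2% (226 positions). Capitals mark bases that differ from PSG3 or are extra within the aligned part, and bases beyond the aligned ends are in lower case. The stretches are chr19:42740482-42740731 for PSG3, chr19:43205639-43205888 for PSG4 and chr19:43186537-43186786 for PSG5, all on the minus strand of GRCh38.p14.
PSG3: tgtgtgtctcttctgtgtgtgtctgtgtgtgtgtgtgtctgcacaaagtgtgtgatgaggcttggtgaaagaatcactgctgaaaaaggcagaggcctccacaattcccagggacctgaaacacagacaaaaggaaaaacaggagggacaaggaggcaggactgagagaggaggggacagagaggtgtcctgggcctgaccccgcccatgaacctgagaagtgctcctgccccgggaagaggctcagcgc
PSG4: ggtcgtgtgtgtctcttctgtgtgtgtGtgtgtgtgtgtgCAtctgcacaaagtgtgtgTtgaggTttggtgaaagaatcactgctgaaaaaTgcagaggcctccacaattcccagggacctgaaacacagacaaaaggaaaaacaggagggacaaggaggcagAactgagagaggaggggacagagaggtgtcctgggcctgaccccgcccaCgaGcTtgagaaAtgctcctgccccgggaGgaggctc
PSG5: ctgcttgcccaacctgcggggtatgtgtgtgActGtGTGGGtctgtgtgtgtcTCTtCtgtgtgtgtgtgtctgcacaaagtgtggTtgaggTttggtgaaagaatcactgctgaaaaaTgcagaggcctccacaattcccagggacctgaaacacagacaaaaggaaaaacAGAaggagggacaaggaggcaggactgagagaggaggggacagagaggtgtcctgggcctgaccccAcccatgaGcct
Of the 265 words of 36 bases in the 300-base start window, 70 in PSG3, 84 in PSG4 and 82 in PSG5 also occurred in the window of another gene.  The other gene was a PSG gene except for 1 word that PSG3 shares with CEACAM8. Only start windows were searched, on both strands, and not the whole genome.

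The CEACAM genes spread from low to high scores along 4 places of the chromosome arm. CEACAM20, expressed in the intestinal brush border, was highest at 122 reads per kb (95% interval 118 to 126, 3435 reads), and CEACAM19 lowest at 32.3 (29.3 to 35.6, 417 reads), a ratio of 3.79 (3.42 to 4.20). The 2 genes lie in the same array, which spans 45005729 to 45213986. CEACAM20 lies 1.15 kb from ZNF180, a zinc finger gene that scored 252 reads per kb with 91.2% of its interval in peaks, whereas every other CEACAM gene lies 86.2 kb or more from a zinc finger gene. A peak of 7950 bp at 45005101 to 45013050 covered all of the last 20% of CEACAM20, the part nearest to ZNF180. CEACAM20 scored 0.486 times as high as ZNF180 (0.466 to 0.506). CEACAM19 and CEACAM16, a protein of the tectorial membrane of the inner ear, had no peak, and CEACAM16 scored 53.1. CEACAM18, which lies apart from the others at 51979838 to 51988359, scored 60.0 without a peak.

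In the array from CEACAM21 to CEACAM3 (42041702 to 42316352) all 6 genes had a peak and scored above the median of all intervals. CEACAM7 and CEACAM5 led with 97.2 (92.3 to 102) and 92.0 (88.0 to 96.1) reads per kb; CEACAM5 encodes carcinoembryonic antigen, the tumour marker after which the family is named. Both had little of their length in peaks, 9.96% and 8.24%. CEACAM3, a granulocyte receptor that takes up bacteria, had the most at 31.9%, and CEACAM6, a granulocyte and epithelial adhesion molecule, had 20.6%. CEACAM21 scored 57.1 and CEACAM4 scored 51.6. The 5 CEACAM genes of leukocytes (CEACAM1, CEACAM3, CEACAM4, CEACAM6 and CEACAM8) ranged from 51.6 to 82.8 reads per kb around a median of 74.4, all 5 with a peak. The 3 of epithelia and inner ear (CEACAM5, CEACAM7 and CEACAM16) had a median of 92.0 with a range of 53.1 to 97.2, 2 of them with a peak. The ranges of these lists overlapped, and CEACAM20, the highest-scoring CEACAM gene, was on neither list. CEACAM6, on the leukocyte list, is also epithelial, so the lists do not cleanly separate tissues.

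CEACAM1, an adhesion molecule with an inhibitory tail, and CEACAM8, the granulocyte antigen CD66b, stand next to the PSG array but had higher scores than any PSG gene. They scored 74.4 (70.8 to 78.2) and 70.3 (66.0 to 74.7) reads per kb, against at most 40.8 for the PSG genes. Each had 1 peak, of 900 bp in CEACAM1 and 1350 bp in CEACAM8, and the peak of CEACAM8 lay over its start. Most of the peak sequence of this 87.6 kb array lay between the 2 genes, where 30.4% was in peaks, against 4.27% within them. The widest peak there, 8100 bp at 43049251 to 43057350, touched no member. Over this whole array 19.7% of the sequence was in peaks, against 0.465% of the PSG array beside it.

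**Figure D3:**
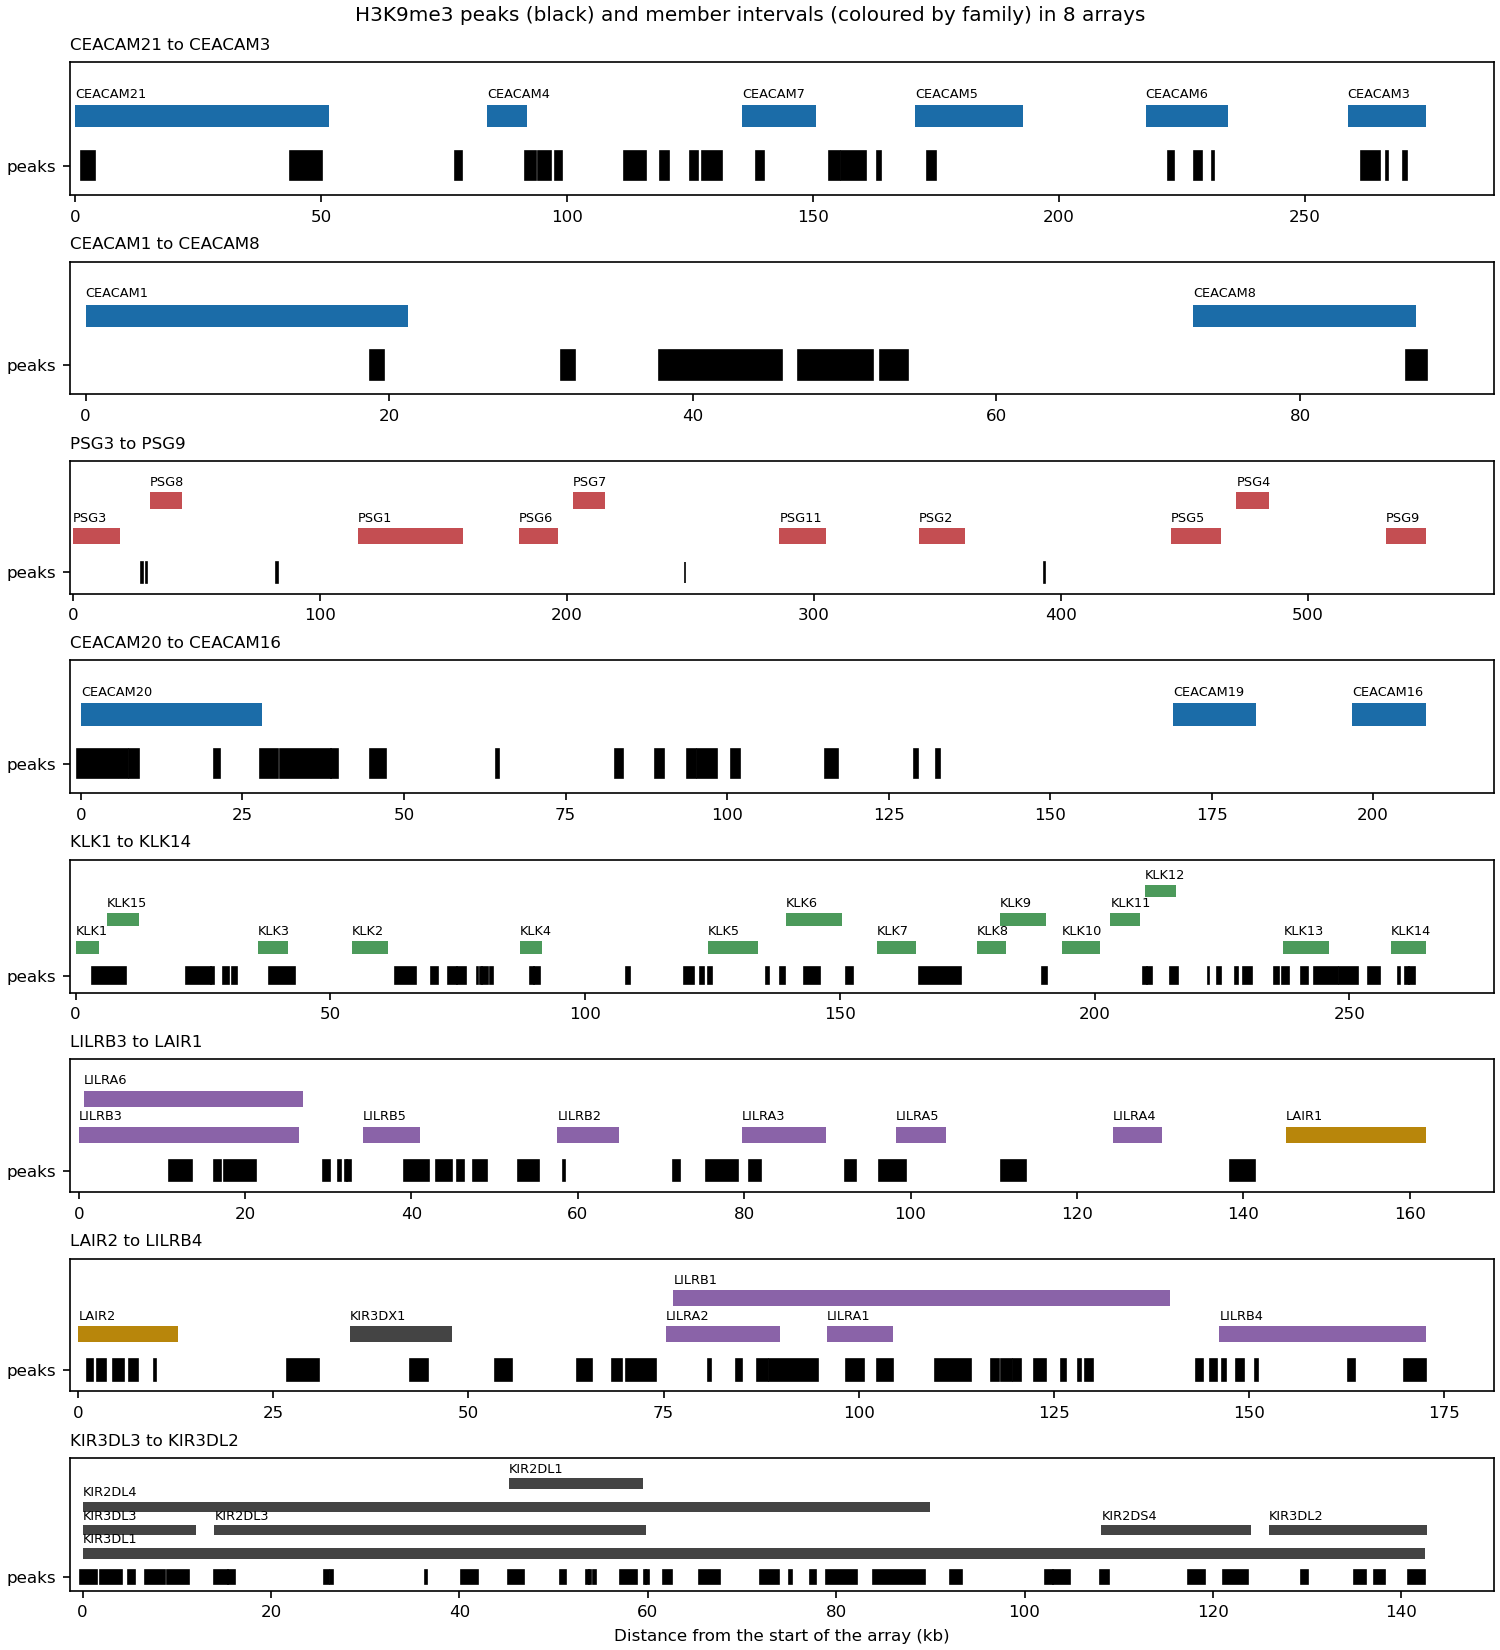
Peaks (black, bottom of each panel) and member intervals (coloured by family) along 8 arrays, against the distance in kb from the start of each array; peaks are drawn with an outline so that those of 300 bp remain visible, and horizontal scales differ. The PSG panel holds 5 narrow peaks over 548 kb, none in a PSG gene, and the KIR panel holds 36 peaks over 143 kb.

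The kallikrein genes had the highest family median and the 2 highest scores of the 58 members. All 15 scored above the median of all intervals. KLK3, prostate-specific antigen, led with 174 reads per kb (163 to 185, 1018 reads), followed by KLK15 with 172 (161 to 182) and KLK13 with 125 (118 to 133). KLK7, a protease that sheds the outer layer of skin, was lowest at 54.4 (49.3 to 59.9), and the ratio of KLK3 to KLK7 was 3.20 (2.85 to 3.60). KLK3 and KLK15 were the 2 members of any family above the median of the zinc finger genes of the chromosome. The next scores were 123 in KLK2 and 110 in KLK12, and the other 10 kallikreins lay between 54.4 and 97.6.

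Peaks lay over 3 kallikrein genes for 50% or more of their length and missed 5 others. KLK3 was covered for 63.6% by a peak of 5250 bp at 51360301 to 51365550, which left the first 20% of the gene free and covered the last 60% fully. KLK13 was covered for 59.6% by 3 peaks, and KLK15 for 59.4%. The peak over KLK15 spanned 6600 bp at 51325651 to 51332250 and reached across the start of KLK1, tissue kallikrein, which releases kinin from its precursor. KLK1 nevertheless had a score of 61.9 (54.9 to 69.4), and KLK15 scored 2.77 times as high (2.43 to 3.17). KLK2, KLK7, KLK8, KLK10 and KLK11 had no peak, with scores from 54.4 in KLK7 to 123 in KLK2. The KLK2 and KLK3 genes are close copies, both expressed in prostate under androgen control, and 45 of 265 words of 36 bases of the start window of each occurred in the window of the other. The other 11 kallikrein windows given shared no such word with any gene.

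The kallikrein sublists overlapped. The classical kallikreins KLK1, KLK2 and KLK3 ranged from 61.9 to 174 reads per kb around a median of 123. The epidermal kallikreins KLK5, KLK7, KLK8 and KLK14 had a median of 82.6 and a range of 54.4 to 95.7, and 2 of the 4 had a peak. Over the array of 265 kb from 51322404 to 51587502, 42 peaks covered 28.7%, with 24.2% within the member intervals and 31.6% outside them. The widest peak, 8250 bp at 51487951 to 51496200, lay between KLK7 and KLK8 and touched no member. The 100 kb before KLK1 had 4.5% in peaks and the 100 kb beyond KLK14 had 20.7%.

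The LILR genes scored between 47.4 and 81.1 reads per kb in the array that begins with LILRB3 and between 76.5 and 90.5 in the array that ends with LILRB4, so that both of the lowest genes lay in the former. LILRA1, an activating receptor, was highest at 90.5 reads per kb (84.2 to 97.1), followed by LILRB1 at 86.1 (83.8 to 88.4) and LILRB4 at 85.6 (82.2 to 89.2), both inhibitory receptors with tails that recruit phosphatases. LILRB2, an inhibitory receptor of monocytes, was lowest at 47.4 (42.5 to 52.6), and LILRA4, a receptor of plasmacytoid dendritic cells, was next at 52.0 (46.3 to 58.1) and the only LILR gene without a peak. The remaining 6 lay between 73.5 and 81.1. LILRA3, which lacks a membrane anchor and is secreted, scored 81.1. The 5 inhibitory LILRB genes had a median of 80.1 and a mean peak cover of 24.2%, and the 6 LILRA genes 75.7 and 24.0%, with overlapping ranges. LILRB3 overlaps LILRA6, and LILRB1 overlaps LILRA1 and LILRA2, so these lists are not separate measurements.

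Several LILR values are not separate measurements, because intervals in the deposited table overlap. The intervals of LILRB3 and LILRA6 share 25.9 kb, which is 97.8% of the first and 98.0% of the second, and their scores of 73.8 and 73.5 largely count the same reads. The LILRB1 interval of 63.6 kb contains LILRA1 whole and 93.4% of LILRA2. In the array from LAIR2 to LILRB4 (55009100 to 55181810) 30.6% of the sequence was in peaks, and in that from LILRB3 to LAIR1 (54720147 to 54882165) 22.6%. In the second of these the peaks lay more between the members (29.4%) than within them (15.7%), and in the first they lay about equally within (32.1%) and between them (27.5%). LILRA2 and LILRA5 were fully covered in the last 20% of their length and had no peak in the first 20%, while LILRB5 was fully covered in its first 20%.

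The LAIR pair differed in both score and peaks. LAIR1, the inhibitory collagen receptor found on most leukocytes, scored 25.9 reads per kb (23.5 to 28.4, 437 reads), the lowest of all 58 members, and had no peak. LAIR2, its secreted relative that competes for collagen, scored 81.0 (76.2 to 86.1, 1037 reads), with 5 peaks over 36.3% of its length. LAIR2 scored 3.13 times as high as LAIR1 (2.80 to 3.51), an interval for counting error only. LAIR1 is the last member of the array that begins with LILRB3, and LAIR2 the first of the next. Among the genes between them, TTYH1, of a chloride channel family, scored 29.5, LENG8 14.4 and CDC42EP5 45.5, each without a peak.

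The KIR genes had peaks along the whole array. All 8 had a peak and scored above the median of all intervals. KIR3DX1, listed by RefSeq as a transcribed pseudogene and lying among the LILR genes, scored 133 reads per kb (127 to 139) with 1 peak of 2250 bp. KIR3DL3, at the head of the KIR array (55235984 to 55248003), scored 109 (103 to 115, 1312 reads) and had 75.0% of its length in 5 peaks, the highest cover of any member. The others lay closer together: 82.5 in KIR2DS4, 81.8 in KIR2DL4, 79.8 in KIR3DL1, 77.7 in KIR3DL2, 75.9 in KIR2DL1 and 67.0 in KIR2DL3 (64.7 to 69.4). KIR2DS4, the only listed gene of the array with the short tail of an activating receptor, thus lay within the range of the 6 long-tailed genes, 67.0 to 109. The KIR3DL1 interval contains KIR2DS4 whole, so the comparison shares reads. The array of 143 kb held 36 peaks, 25.2 per 100 kb, the highest density of the 8 arrays, and 34.3% of it was in peaks.

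The KIR3DL1 and KIR2DL4 intervals in the deposited table span 142 and 90.0 kb and contain other KIR genes. Both begin within 33 bp of the start of KIR3DL3, so their scores describe large parts of the array rather than a gene. Without them the family median was 80.1 and the cover 30.6%. These values still include the KIR2DL3 interval of 45.8 kb, which contains KIR2DL1 whole, so the score of 67.0 is not that of KIR2DL3 alone. A start lay in a peak in 14 of the 58 members (24.1%), against 8.26% of all intervals, 7.81% of those of 4 kb or more and 7.94% of the other long intervals of chromosome 19. The share among the zinc finger genes of the chromosome was 23.1%, close to that of the members. The KIR genes held 6 of the 14, but KIR3DL1, KIR3DL3 and KIR2DL4 share 1 start, so that 4 of 6 separate KIR starts lay in a peak. These were the starts of KIR3DL3, KIR2DL3, KIR2DL1 and KIR2DS4, and the starts of KIR3DL2 and KIR3DX1 did not. The other members with a start in a peak were CEACAM4, CEACAM8, CEACAM20, KLK1, KLK9, KLK12, KLK13 and LILRB5.

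The start regions of the KIR genes are printed because 4 of these genes had the start base itself in a peak. KIR3DL2, the nearest of the printed copies to KIR2DL3, did not. The peaks began at 55249951 for KIR2DL3, 55281151 for KIR2DL1 and 55344001 for KIR2DS4 (hg19), against starts at 55249980, 55281263 and 55344131. Each began less than 250 bases before the start, so much of the printed stretch may lie outside the peak. Peaks were placed on hg19 interval starts, and the RefSeq starts of GRCh38.p14 may differ from them. The 250 bases before the RefSeq start are given 5′ to 3′, with capitals for bases that differ from KIR2DL3 or are extra within the aligned part and lower case for bases beyond its ends. They are chr19:54738263-54738512 for KIR2DL3, chr19:54769543-54769792 for KIR2DL1, chr19:54832457-54832706 for KIR2DS4, chr19:54850193-54850442 for KIR3DL2 and chr19:54724192-54724441 for KIR3DL3, all on the plus strand of GRCh38.p14.
KIR2DL3: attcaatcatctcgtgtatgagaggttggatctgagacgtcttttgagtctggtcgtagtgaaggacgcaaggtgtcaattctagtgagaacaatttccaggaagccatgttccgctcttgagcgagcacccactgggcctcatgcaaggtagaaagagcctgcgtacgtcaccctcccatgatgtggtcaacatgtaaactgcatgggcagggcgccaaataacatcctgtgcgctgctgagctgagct
KIR2DL1: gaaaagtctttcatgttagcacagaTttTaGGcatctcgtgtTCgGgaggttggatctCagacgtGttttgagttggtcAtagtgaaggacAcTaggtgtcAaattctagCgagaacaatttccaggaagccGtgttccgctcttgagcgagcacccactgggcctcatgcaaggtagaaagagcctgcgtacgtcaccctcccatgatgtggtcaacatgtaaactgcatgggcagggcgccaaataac
KIR2DS4: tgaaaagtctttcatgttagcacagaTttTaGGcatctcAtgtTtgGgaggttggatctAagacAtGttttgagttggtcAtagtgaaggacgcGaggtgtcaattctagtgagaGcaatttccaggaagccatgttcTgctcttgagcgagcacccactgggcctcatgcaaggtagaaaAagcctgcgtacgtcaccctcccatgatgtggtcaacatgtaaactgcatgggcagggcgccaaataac
KIR3DL2: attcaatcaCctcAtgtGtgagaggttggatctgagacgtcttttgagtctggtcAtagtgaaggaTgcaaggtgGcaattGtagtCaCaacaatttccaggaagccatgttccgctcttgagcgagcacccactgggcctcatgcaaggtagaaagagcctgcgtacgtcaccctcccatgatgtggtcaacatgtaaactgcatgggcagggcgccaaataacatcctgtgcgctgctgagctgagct
KIR3DL3: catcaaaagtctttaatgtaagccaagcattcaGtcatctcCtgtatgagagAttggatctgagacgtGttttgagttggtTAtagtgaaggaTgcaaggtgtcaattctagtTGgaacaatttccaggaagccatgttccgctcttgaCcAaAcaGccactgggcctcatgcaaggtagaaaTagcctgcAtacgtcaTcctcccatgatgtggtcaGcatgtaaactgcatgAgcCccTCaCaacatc
Identity to KIR2DL3 over the aligned part was 96.4% for KIR3DL2, 92.9% for KIR2DL1 and for KIR2DS4, and 87.7% for KIR3DL3. The pair of KIR2DL3 and KIR3DL2 differed at 9 of 250 positions, with a start in a peak in the first and not in the second. The KIR2DL3 peak began at 55249951, close before the start at 55249980 (hg19), and ran on into the gene. Compared bases farther upstream than its edge lie outside it, and whether the differences bear on the peak was not tested. KIR2DL4 stood apart, at 64.6 to 68.2% identity with the other 6 KIR genes that had a window.

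By shared words, KIR3DL3 stood apart as well as KIR2DL4. Between 41.5% (KIR2DL1) and 63.8% (KIR3DL1) of the words of 36 bases in the start windows of KIR2DL1, KIR2DS4, KIR3DL2, KIR2DL3 and KIR3DL1 occurred in the window of another KIR gene. In KIR3DL3 and KIR2DL4 the share was 0%. KIR3DL3, with the highest peak cover of the family, thus had a start window that shared no word of this length with another gene in the table. Of the CEACAM windows, 1 of 10 shared any such word, and of the LILR windows 4 of 8. The CG dinucleotide, counted on 1 strand since it reads the same on both, occurred a median of 13 times in KIR windows, 6 in KLK, 4 in LILR, 3.5 in CEACAM and 3 in PSG, against 14 over all 35116 windows of the table.

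**Figure D4:**
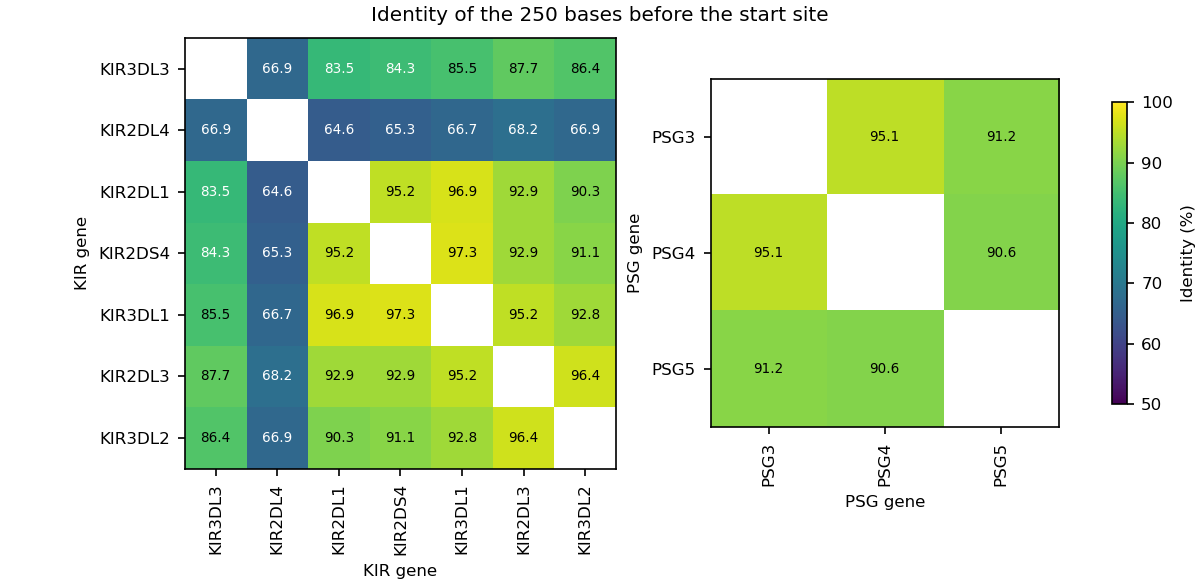
Percent identity (colour and printed value) of the 250 bases before the start site between pairs of KIR genes (left) and PSG genes (right), over the aligned positions, from RefSeq windows of GRCh38.p14. KIR2DL4 is at most 68.2% identical to any other KIR gene shown, and the 3 PSG pairs lie between 90.6 and 95.1%.

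Peaks took different places along the genes of each family. In the 8 KIR genes the mean cover was 36.8% in the first 20% of the interval, 17.2% in the second and 50.9% in the last. KIR2DS4 rose to 84.9% in its last 20%, and KIR3DL3 was covered for 55.9% or more in each part. In the LILR genes the mean was 15.0%, 31.7%, 21.8%, 12.2% and 39.7% from the first part to the last, without a steady rise. In the CEACAM genes it was 12.2% in the first part, 2.28% in the middle part and 15.2% in the last. In the kallikreins the middle part had the most, 35.9%, and the ends 26.2% and 26.6%. These means weigh each gene equally, and overlapping LILR and KIR intervals enter more than once.

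**Figure D5:**
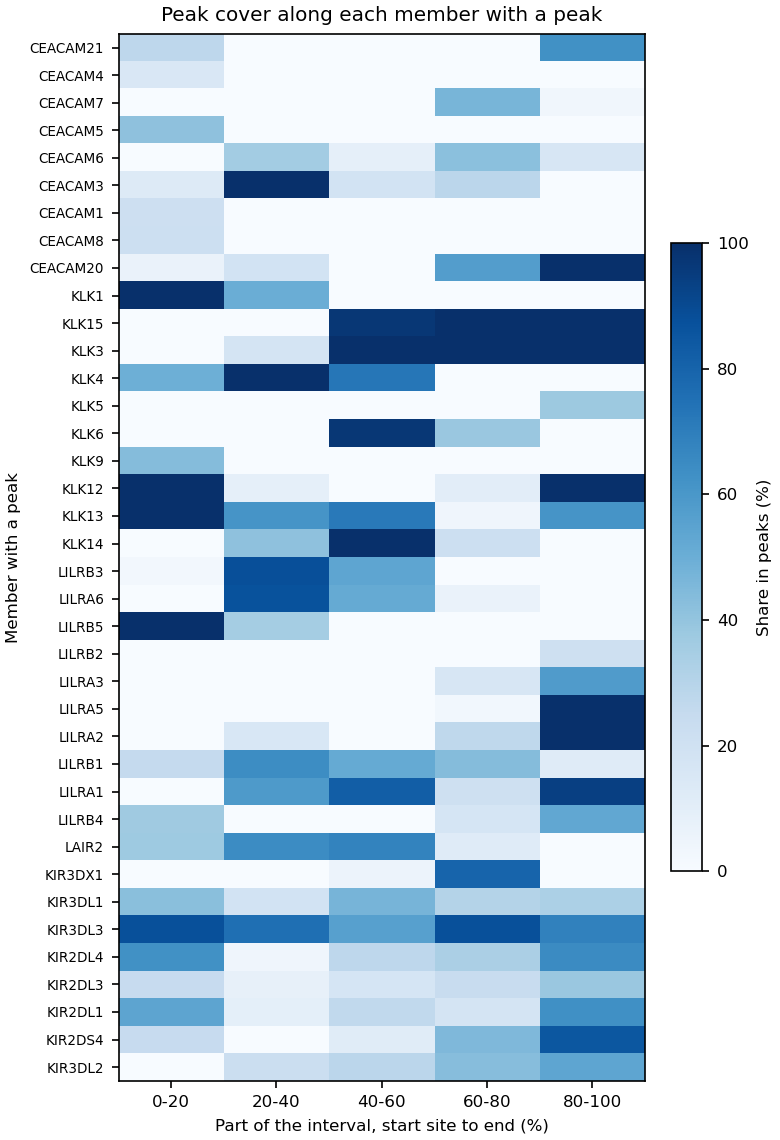
Share of sequence in peaks in percent (colour) in 5 equal parts of the interval, from the start site (left) to the end (right), for the 38 members with a peak; each line is 1 gene of 1 library. KLK3 and KLK15 are covered in their last 3 parts, KIR3DL3 in all 5 parts, and CEACAM1 and CEACAM8 in the first part alone.

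Other genes of the leukocyte receptor complex divided into immune receptors with intermediate scores and broadly expressed genes with mostly low ones. The 6 other immune receptors (VSTM1, TARM1, OSCAR, FCAR, NCR1 and GP6) each had a peak, and their median was 78.9 reads per kb. NCR1, the natural killer receptor NKp46, scored 107 (99.8 to 115) with 74.0% of its length in peaks, close to KIR3DL3, and VSTM1 scored 104. OSCAR, an osteoclast receptor, was lowest at 41.6 (37.3 to 46.3). The 10 broadly expressed genes had a median of 14.3, and 8 of them lay between 11.8 and 18.8 without a peak. Among these were the splicing factor PRPF31 at 13.5 and CNOT3, a subunit of the deadenylase complex, at 15.9. The intervals of NDUFA3 and TFPT overlap, as do those of TFPT and PRPF31 and those of CNOT3 and LENG1. The low values are therefore not all separate measurements. CDC42EP5 scored 45.5 without a peak. RPS9, a ribosomal protein gene, scored 62.1 with 21.8% in peaks, but its interval of 48.3 kb overlaps those of LILRB3 and LILRA6 and shares their reads. The ranges of the whole lists overlapped, since CDC42EP5 and RPS9 scored above OSCAR.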

How the data were processed

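The submitters' processing notes name hg19, Bowtie2 and MACS, with neither version nor role, and no source used here states the read filters or how IgG entered peak calling. Read counts were deposited by the authors in a table of gene intervals, not normalised, with interval lengths in kb. The deposited signal value, called gene score here, equals reads per kb (largest difference 3.03e-06) and is not scaled to depth, copy number or control, so genes are comparable within this library alone. Deposited peaks are coordinates without height or fold, all 126965 on a grid of 150 bp.

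Every row matching the rule was a member. Cover was the share of an interval in peaks, a peak was counted from an overlap of 1 bp, and the start was the interval's 5′ end. Score intervals are exact Poisson and ratio intervals exact conditional binomial, both at 95% and for counting error only, since reads are not independent molecules. Start windows came from RefSeq (GRCh38.p14): 42 of 58 symbols matched, the first window of each symbol was used, and alignments left end gaps free. The cover and interval calculations were tested on simulated data. Named genes were the 3 highest and the lowest of each family, those with 50% or more in peaks and the members of fixed lists; others were named after their values were seen. The members and lists were chosen with earlier results of these data known. Alternatives are given in the closing section. Biopython 1.88 aligned the windows, matplotlib 3.10.9 drew the plots, and scipy 1.17.1, pandas 2.3.3 and numpy 2.4.6 under Python 3.11.15 did the rest.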

Additional observations from a re-analysis of the deposited data

How the results depend on the processing

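No paired analysis was possible because there is 1 H3K9me3 library. Of 105 values recomputed under alternatives, 22 moved beyond their counting interval or, for counts, by over 1.5 times. The others say little about stability, since no member had fewer than 10 reads, a length under 1 kb or a second interval, and several settings could change nothing. Joining peaks up to 1500 bp apart left 0% cover in the PSG genes, but it could not have added any. No peak touched a PSG gene, and each PSG gene is longer than the widest gap joined. With peaks of 1500 bp or more, cover was 12.1% in CEACAM, 15.2% in KLK, 21.0% in LILR, 0% in LAIR and 24.8% in KIR genes, and a peak remained in 6 KLK and 0 LAIR genes. With peaks up to 1500 bp apart joined, cover was 32.2% in LILR, 22.7% in LAIR and 37.8% in KIR genes. As a mean over genes, cover was 11.4% in CEACAM and 24.1% in LILR genes. Cover of 50% or more was met by 0 CEACAM, 3 KLK, 1 LILR, 0 LAIR and 1 KIR gene. With reads and lengths summed, the score was 99.6 in KLK and 49.6 in LAIR genes. Among members that overlap no other member, an alternative chosen after seeing the data, 5 LILR and 1 KIR gene had a peak. The LILR genes left were LILRA3, LILRA4, LILRA5, LILRB2, LILRB4 and LILRB5, and only LILRA4 had no peak. KIR3DX1 was the only KIR gene left, so the KIR value was its score alone, 133, above the KLK median. Mappability, IgG reads and total depth were not used here, and with 1 library the spread between replicates is unknown.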
